A study of Mus musculus with 18 samples.

Results

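The 5 genes described here, Reg1, Reg3a, Reg3b, Reg3g and Reg4, encode secreted lectins of the Reg family. They were found by the gene symbol that the array's annotation gives, and where several probe sets carried a symbol, the brightest by its average over the 18 arrays was taken. They are 5 of the 17316 genes tested, out of 19938 genes with a named probe set. A gene was tested when it exceeded the 25th percentile of its array in at least 3 arrays, and all 5 did. The remaining Reg genes on the array, Reg2 and Reg3d, lay between 3.0 and 4.13 and between 3.59 and 4.43 on the log2 scale, below the 25th percentile of each of the 18 arrays, and were not tested.

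RNA came from 6 groups of 3 mouse samples, 1 array per sample, and the series asks whether the transcription factor Stat3 is needed for intestinal tumours to progress. The control groups, labelled Stat3fl/fl, carried floxed Stat3 alleles and were intestinal epithelial cells (replicates 1 to 3), tumours of male mice (7 to 9) and tumours of female mice (13 to 15). The Stat3-deleted groups, labelled Stat3-/-, were epithelial cells (4 to 6), male tumours (10 to 12) and female tumours (16 to 18) of mice that also expressed Cre recombinase from the Villin promoter. That promoter is active in the gut epithelium, so connective tissue, vessels and immune cells of a tumour keep their Stat3. The series text and the sample descriptions both place the tumours in mice with the APCmin allele of Apc. The series text describes tumours that this allele causes, mainly in the small intestine, whereas the sample descriptions name colorectal tumours after a carcinogen and an irritant, so neither the way the tumours arose nor their gut segment is settled. The same description stands on the epithelial cell samples, whose titles and sources name epithelial cells. Ages, the Apc genotype of the epithelial cells and whether the samples came from separate animals are not given in the labels. The p-values therefore set differences between groups against the spread of these samples within groups, and that spread may be technical.

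Reg3b and Reg3g are released by enterocytes and Paneth cells into the mucus. Reg3g binds the peptidoglycan of Gram-positive bacteria and helps to keep bacteria away from the gut surface, and it is the mouse counterpart of human REG3A. In the gut both are known as genes induced by interleukin 22 through Stat3 and by bacterial signals sensed through Myd88. Reg1 and Reg3a are made in the exocrine pancreas and the gut, where Reg1 has been studied as a growth factor for epithelial cells. Reg4 is made by enteroendocrine and other secretory cells of the epithelium and has been studied in gastrointestinal cancers.

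On mouse chromosome 6 the genes Reg3b, Reg3d, Reg3a, Reg2, Reg1 and Reg3g follow each other in this order, with only the pseudogene Gm52853 between the last pair, and Reg4 lies apart on chromosome 3. The 250 bases before the transcription start are shown for 3 of the chromosome 6 genes. They were chosen because Reg3b and Reg3g moved together with Stat3 deletion in the data below while Reg3a, which lies between them, did not pass. The sequences are from RefSeq in build GRCm38.p6, read 5′ to 3′ on the strand of the gene, at chr6:78370635-78370884 (plus strand) for Reg3b, chr6:78468875-78469124 (minus strand) for Reg3g and chr6:78380459-78380708 (plus strand) for Reg3a. Capitals mark matches to TTCNNNGAA, the spacing bound by STAT dimers, and to TATAAA, the TATA box, on either strand.
Reg3b: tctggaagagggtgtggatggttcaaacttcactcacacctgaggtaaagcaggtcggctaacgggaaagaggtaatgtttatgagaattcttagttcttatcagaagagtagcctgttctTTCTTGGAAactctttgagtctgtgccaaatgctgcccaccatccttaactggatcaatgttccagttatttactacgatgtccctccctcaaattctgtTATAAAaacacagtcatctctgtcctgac
Reg3g: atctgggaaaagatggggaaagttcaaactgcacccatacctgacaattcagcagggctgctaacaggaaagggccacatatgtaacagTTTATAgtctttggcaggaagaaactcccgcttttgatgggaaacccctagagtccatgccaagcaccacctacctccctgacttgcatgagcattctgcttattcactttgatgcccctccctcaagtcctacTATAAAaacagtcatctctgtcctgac
Reg3a: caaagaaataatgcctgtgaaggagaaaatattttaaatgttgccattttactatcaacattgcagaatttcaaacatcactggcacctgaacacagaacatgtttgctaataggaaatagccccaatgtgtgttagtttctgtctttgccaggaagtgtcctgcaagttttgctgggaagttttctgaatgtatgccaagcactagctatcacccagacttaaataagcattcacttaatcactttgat
Reg3b held 1 match to TTCNNNGAA, TTCTTGGAA, from 129 to 121 bases before the start. Reg3g, Reg3a, Reg1 and Reg4 held none in this window, which says nothing about sites elsewhere. Reg3d, the neighbour that was dim on all arrays, also held 1, TTCCCAGAA, from 238 to 230 bases before the start. The motif was found in 7.02% of 32851 promoter windows of the same length, and its stricter form TTCCNGGAA, every match of which is also a match to TTCNNNGAA, in 0.913% and in none of the 5 Reg genes. TATAAA was present in 12.4% of the windows. It lay 29 to 24 bases before the start of Reg3b, 27 to 22 before Reg3g and 30 to 25 before Reg1. Reg3g had a further match on the opposite strand, 161 to 156 bases before the start. In global alignments of the 250 bases, Reg3b and Reg3g matched at 173 of 253 columns (68.4%). The other pairs among the 7 Reg genes matched at 44.9% to 56.9%, the highest being Reg1 with Reg2.

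The values are deposited log2 expression values, and array medians lay between 5.88 and 6.07. Stat3 itself lay between 9.74 and 10.35 on the control arrays and between 7.73 and 8.46 on the deleted ones, with no overlap. Whether its probe set lies in the deleted exons is not known. The epithelial arrays carried male values of the sex-linked genes Xist and Eif2s3y, so the comparison of tissues mixes sexes on 1 side only. Epithelial markers such as Epcam and Vil1 averaged 10.64 to 11.27 over 9 of 9 genes on every array. Control tumour replicates 9 and 15 stood apart. Their mean of 6 colon marker genes of 7 listed was 7.97 and 8.02 against at most 5.96 on the other 16 arrays, and their mean of 9 enterocyte genes was 9.11 and 8.75 against 10.78 to 12.04 in the other tumours. Each tumour result was therefore also computed without these 2 arrays. All differences come from a limma fit of 6 group means to all genes, are given on the log2 scale with their standard error (SE), and passed when the Benjamini-Hochberg adjusted p over 17316 genes was under 0.05.

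Reg3b fell with Stat3 deletion in epithelial cells and in tumours of both sexes, by the largest amount among the 5 genes in each comparison. In control epithelial cells its log2 values were 13.11, 13.24 and 13.06, and in Stat3-deleted cells they were 8.39, 8.06 and 8.21. The cells of each genotype differed little among themselves, and the genotypes lay far apart. In male tumours Reg3b was 12.83, 12.56 and 11.26 in controls and 5.39, 5.70 and 8.79 after deletion. In female tumours it was 13.10, 12.81 and 11.70 in controls and 7.37, 6.69 and 5.26 after deletion. Every deleted tumour lay below every control tumour, and deleted replicates 10, 11 and 18 lay below their array's median, so their Reg3b signal is near that of dim genes. Male deleted replicate 12 was the highest deleted tumour and lay above the 3 deleted epithelial samples. In bulk RNA, fewer cells that make a transcript and less transcript per cell cannot be told apart.

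Reg3b differed by -4.91 in epithelial cells (SE 0.71, limma adjusted p 0.017), a 30.1-fold decrease. For each gene the fit used 1 spread shared by all 6 groups. The SD of Reg3b was 0.092 and 0.17 in control and deleted cells, and 0.74 to 1.88 in the tumour groups. The difference was -5.59 in male tumours (limma adjusted p 0.0019), -6.09 in female tumours (0.0007) and -5.84 over both sexes (SE 0.50, 95% interval -6.90 to -4.79). The call over both sexes held in all 22 alternative settings, with differences from -6.38 to -5.24 and a highest limma adjusted p of 0.0016. The call in epithelial cells held in 9 of 15 alternatives, with a lowest limma adjusted p of 5.4e-08. It was lost when any of replicates 1 to 6 was left out. The differences were then -5.00 to -4.83 and the limma adjusted p 0.0558 to 0.129. When the fit held the compared groups alone, the Reg3b call was kept in epithelial cells. Under that setting it was lost in male tumours (limma adjusted p 0.304) and in female tumours (0.0917).

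Reg3g followed the same order of groups with smaller differences. Its log2 values were 12.75, 12.89 and 12.78 in control epithelial cells and 8.26, 9.01 and 9.73 in deleted cells. The 3 deleted cell samples were more spread than for Reg3b. In male tumours Reg3g was 12.66, 11.48 and 11.30 in controls and 6.79, 7.63 and 9.94 after deletion. In female tumours it was 12.76, 12.36 and 11.70 in controls and 8.48, 7.64 and 6.80 after deletion. Again no deleted array reached a control array, and male replicate 12 was the highest of the deleted tumours. Unlike Reg3b, Reg3g stayed above the array median on all 18 arrays.

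Reg3g fell in male tumours by 3.69 (SE 0.63, limma adjusted p 0.0176) and in female tumours by 4.63 (0.0038). Over both sexes the difference was -4.16 (SE 0.45, 95% interval -5.11 to -3.21), a 17.9-fold decrease that held in all 22 alternatives, with differences from -4.62 to -3.72 and a highest limma adjusted p of 0.0062. In epithelial cells the difference was -3.80 (SE 0.63, 95% interval -5.14 to -2.46) and did not pass (limma adjusted p 0.058). It passed there when the tumour arrays were left out of the fit (0.00018) and under array weights (0.0047), a fit that gave deleted replicate 6 a weight of 4.87. The call in male tumours was lost without replicate 7 (0.0801), replicate 10 (0.0835) or replicate 11 (0.161), with only the compared groups (0.527), and with array (0.123) or group weights (0.143). The call in female tumours was lost with only the compared groups (0.0917).

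**Figure D1:**
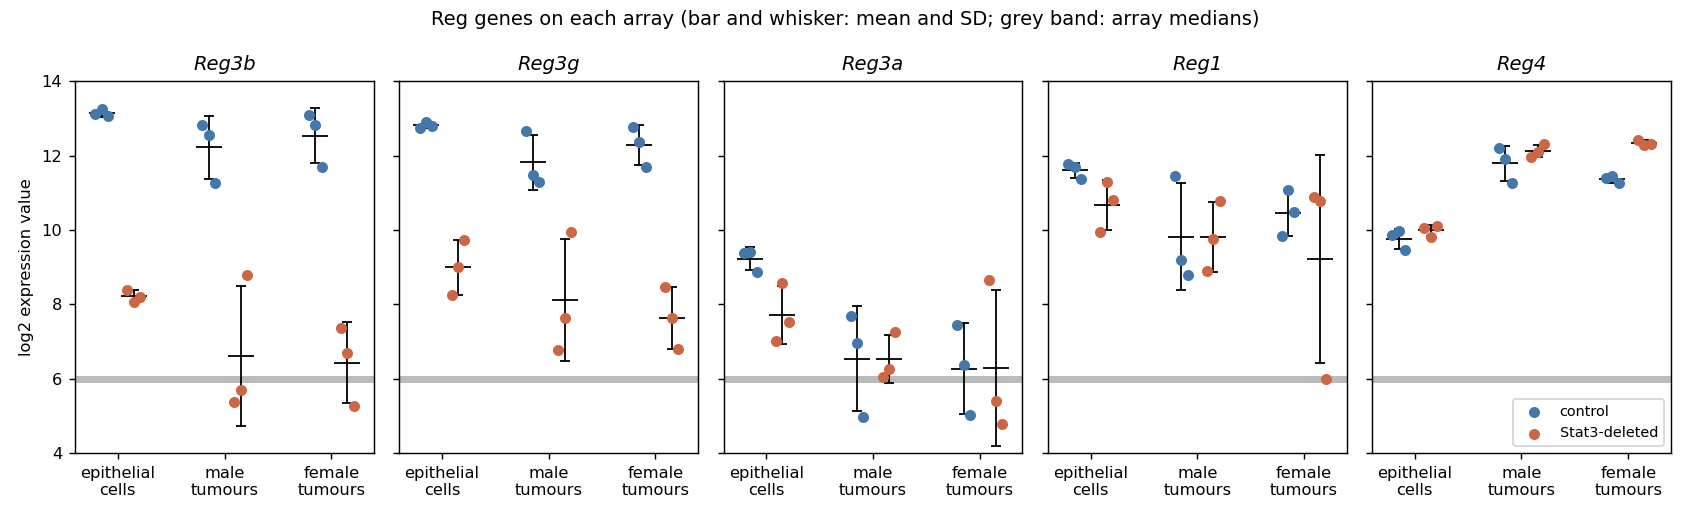
Log2 expression of the 5 Reg genes on each array (points), with the mean and SD of each group of 3 (bar and whisker), for control and Stat3-deleted epithelial cells, male tumours and female tumours; the grey band spans the array medians. Deleted arrays lie below all controls for Reg3b and Reg3g in each tissue, overlap them for Reg3a and Reg1 in tumours, and lie above them for Reg4 in female tumours.

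The levels of Reg3b and Reg3g varied together over the 18 arrays (Pearson r 0.985, Spearman rho 0.975), as a description of samples that share genotype and tissue. Their distance changed with genotype. Reg3b minus Reg3g was between 0.28 and 0.36 in control epithelial cells and 0.13, -0.95 and -1.52 in deleted ones, so 2 of 3 deleted cell samples lay far below the controls. In control tumours it was 0.17, 1.08 and -0.04 in males and 0.34, 0.45 and 0.01 in females. In deleted tumours it was -1.40, -1.93 and -1.15 in males and -1.11, -0.95 and -1.54 in females, with no overlap between genotypes. The distance itself has no meaning between probe sets, and its change is the difference between the deletion effects that these probe sets measured. Reg3b lay below the array median on deleted replicates 10, 11 and 18, where Reg3g did not. Whether the probe sets respond alike over this range was not tested. That change was -1.68 in tumours (two-sided exact permutation of genotype within sex, p 0.005, the smallest that 400 relabelings can give), and between -1.79 and -1.51 in 13 alternatives. This contrast was chosen after the values were seen. Genotypes that do not overlap in either sex, as here, always give this smallest p, so it adds no separate support. Probes of such related genes may cross-react, which was not tested.

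**Figure D2:**
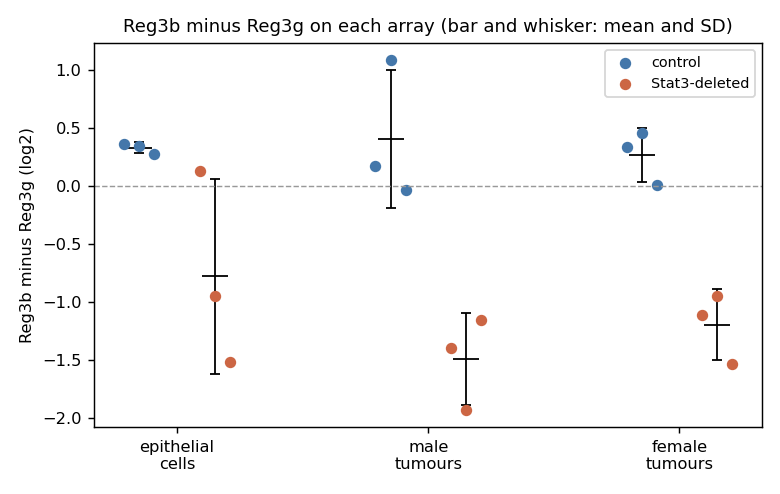
Reg3b minus Reg3g (log2) on each array for control and Stat3-deleted samples, with group mean and SD (bar and whisker, 3 arrays each). All 6 deleted tumours lie between -1.93 and -0.95, below all 6 control tumours, which lie between -0.04 and 1.08.

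Reg3a, which lies between Reg3b and Reg3g on chromosome 6, did not pass in any deletion comparison. Its log2 values were 9.39, 9.42 and 8.88 in control epithelial cells and 7.03, 8.58 and 7.54 in deleted cells. The cell groups did not overlap, although by only 0.30 between the nearest samples. In tumours it was 7.70, 6.97 and 4.97 in male controls and 6.04, 6.28 and 7.27 in deleted males. In females it was 7.44, 6.37 and 5.02 in controls and 8.67, 5.42 and 4.79 after deletion. The genotypes overlapped in tumours of each sex. The lowest control tumours were replicates 9 and 15, those with colon markers, as they also were for Reg3b and Reg4. For Reg3g they were the lowest control tumours of their sex. For Reg1 this held for replicate 9 but not for replicate 15. In Reg3a, 4 tumours lay below their array's median.

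The Reg3a difference was -1.51 in epithelial cells (SE 0.86, 95% interval -3.34 to 0.31, limma adjusted p 0.728) and 0.00 in tumours of both sexes (SE 0.61, 95% interval -1.29 to 1.29). These intervals leave room for changes of more than 2-fold in either direction in tumours. Without control replicates 9 and 15 the tumour difference was -0.71, and without female deleted replicate 16, the highest tumour, the female difference turned from 0.02 to -1.17.

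Reg1 did not pass in any deletion comparison either. Its log2 values were 11.76, 11.68 and 11.38 in control epithelial cells and 9.95, 11.28 and 10.80 in deleted cells. The cell groups were separated by 0.10. In male tumours Reg1 was 11.46, 9.20 and 8.79 in controls and 8.89, 9.75 and 10.78 after deletion. In females it was 9.84, 11.07 and 10.48 in controls and 10.89, 10.78 and 6.0 after deletion. The genotypes overlapped in tumours, and female deleted replicate 18 lay 2.79 below the next lowest tumour. The differences were -0.93 in epithelial cells (SE 0.98, 95% interval -3.01 to 1.14), -0.01 in male tumours (-2.09 to 2.06) and -1.24 in female tumours (-3.31 to 0.84), with limma adjusted p of 0.847, 0.9999 and 0.997. Over both sexes it was -0.63 (-2.09 to 0.84, limma adjusted p 0.825). Without replicate 18 the female difference was 0.37, so its sign rests on that sample.

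Reg4 was the 1 Reg gene that passed as higher after deletion in tumours. Its log2 values were 9.86, 9.96 and 9.46 in control epithelial cells and 10.04, 9.82 and 10.10 in deleted cells. These groups overlapped. In male tumours Reg4 was 12.20, 11.90 and 11.27 in controls and 11.97, 12.10 and 12.30 after deletion. In females it was 11.39, 11.45 and 11.25 in controls and 12.42, 12.27 and 12.30 after deletion. The male groups overlapped, while the female groups were separated by 0.82. The share of all genes whose female groups separate in this way was not counted.

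Over both sexes Reg4 rose by 0.65 (SE 0.14, 95% interval 0.34 to 0.96, limma adjusted p 0.0497), 1.57-fold. This call sits at the threshold, and it was lost in 15 of 22 alternatives, with differences of 0.49 to 0.69 and limma adjusted p of 0.05002 to 0.14. Among them were the fits without any of replicates 8 to 18 in turn, the fit without the tumours with colon markers (0.49, limma adjusted p 0.107) and the fit of the tumours alone (0.133). In female tumours the difference was 0.97 (SE 0.20, 95% interval 0.53 to 1.40) and did not pass (limma adjusted p 0.121), but passed with array weights (0.0013) and group weights (0.0091). In male tumours it was 0.33 (95% interval -0.10 to 0.77) and in epithelial cells 0.23 (-0.20 to 0.66), and neither passed.

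Read against all genes, 1 of 5 Reg genes passed in epithelial cells, where 0.0231% of all tested genes did. In male tumours 2 of 5 passed (0.231% of all genes), in female tumours 2 of 5 (0.104%) and over both sexes 3 of 5 (0.71%). In epithelial cells 4 of 5 Reg genes, all but Reg4, had every deleted array below every control array, as did 7.81% of all genes. In tumours of both sexes this held for 2 of 5, Reg3b and Reg3g, and for 1.14% of all genes. The epithelial result was accompanied by a difference in immune markers. The mean of 9 T and NK cell genes of 10 listed was 7.04 to 7.78 in control and 7.85 to 9.43 in deleted cells, highest in replicate 4, and 0 of the 9 passed in limma, with 7 at an unadjusted p under 0.05. Their part in the result was not tested. Without replicate 4 the Reg3b difference was -5.00 and did not pass (limma adjusted p 0.122), and deleted replicates 5 and 6, with T and NK means of 8.28 and 7.85, also lay above the controls.

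**Figure D3:**
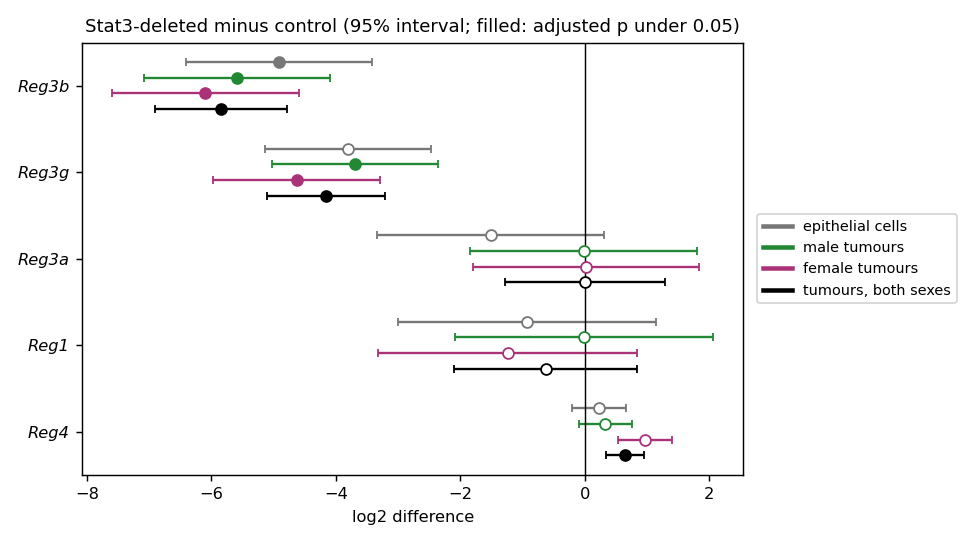
Stat3-deleted minus control difference of each Reg gene (log2, points) with its 95% interval (lines) in epithelial cells, male tumours, female tumours and tumours of both sexes; filled points passed the limma test. The intervals of Reg3b and Reg3g lie wholly below 0 in every tissue, those of Reg3a and Reg1 span 0, and that of Reg4 over both sexes lies between 0.34 and 0.96.

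The deletion effect was not shown to differ between the sexes or between tumours and cells for any Reg gene. For the sexes, 0 of 5 passed in limma, as did 0% of all genes (0 of 17316, with 162 at an unadjusted p under 0.05). The female minus male difference of effects was -0.50 for Reg3b (95% interval -2.62 to 1.61), -0.94 for Reg3g (-2.83 to 0.96) and 0.63 for Reg4 (0.02 to 1.25, unadjusted limma p 0.0433, adjusted 1). These intervals are wide enough to hold a difference of 2-fold or more. Between tissues limma called 0 of 5 (0 also at an unadjusted p under 0.05), against 0.0116% of all genes. The tumour effect minus the epithelial effect was -0.93 for Reg3b (-2.76 to 0.90), -0.36 for Reg3g (-2.0 to 1.28), 1.51 for Reg3a (-0.72 to 3.75) and 0.42 for Reg4 (-0.11 to 0.95).

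The genotype groups of the tumours also differed in markers of gut segment and cell type, beside which the Reg results stand. The mean of 3 ileum genes of 4 listed was 5.16 to 5.86 in deleted tumours and 5.69 to 9.77 in control tumours, where replicates 7, 8 and 14 had 7.59, 9.77 and 7.61. Among them the bile acid transporter Slc10a2 fell by 2.03 in tumours of both sexes (SE 0.24, limma adjusted p 0.0003). Of 6 measured Paneth cell genes of 9 listed, 1 fell, the matrix protease Mmp7 (-1.65, SE 0.34, limma adjusted p 0.0328), and 3 were at an unadjusted limma p under 0.05. The differences of this list had a median of -0.43 and reached 1.15, which did not pass. The list's mean was 9.35 to 10.28 in control and 8.82 to 10.10 in deleted tumours. Of 9 enterocyte genes 0 passed with deletion in tumours (4 at an unadjusted limma p under 0.05), and their median difference was 0.83. Of 7 measured goblet cell genes and 9 enteroendocrine genes 0 passed (3 and 2 at that unadjusted p), with median differences of 0.14 and 0.28. Of 7 neutrophil genes Ly6g alone fell (-2.99, limma adjusted p 0.0019). Of 5 tuft cell genes 1 fell, the actin-binding Avil (-1.20, limma adjusted p 0.0023), in a list with a median of -0.03 and a highest difference of 0.84. Of 4 crypt base stem cell genes 1 fell, the transcription factor Ascl2 (-0.82, limma adjusted p 0.0202), and the list median was -0.04. The highest difference of that list was 1.58 in male and 0.99 in female tumours, and neither passed. The pancreatic acinar list, which would mark attached pancreas, averaged 5.21 to 5.81 over 8 measured genes of 12, below the array medians. Whether segment or cell makeup had a part in the Reg differences was not tested.

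The pathway that leads to Reg3b and Reg3g was followed in lists assembled with earlier results of these data known. Over all genes 0.71% passed in tumours of both sexes, and 2081 of 17316 were at an unadjusted limma p under 0.05. Of 10 cytokines that activate STAT3, 7 were tested and 0 passed in tumours of both sexes (0 also at an unadjusted limma p under 0.05), with a median difference of 0.09 against -0.04 over all genes. Il6, which signals through Stat3 in the gut, differed by 0.54 (SE 0.35) and Il11, a related cytokine, by 0.44 (SE 0.34). Il22, the cytokine best known to induce Reg3g, was named only on probe sets with several symbols. Those stayed unnamed here, so Il22 was not assessed. Of 15 receptors and kinases upstream, 13 were tested, with 3 at that unadjusted p, and 1 fell, Stat3 itself (-1.98, SE 0.11). Its partners did not pass. Il22ra1, the epithelial receptor chain for interleukin 22, differed by 0.76 (SE 0.30, limma adjusted p 0.304), and Il6st, the signalling chain shared by interleukin 6 family receptors, by -0.03 (SE 0.20).

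Of 15 feedback and target genes of STAT3, a list also assembled with earlier results of these data known, all were tested. The list median was -0.10 in tumours of both sexes, with 5 genes at an unadjusted limma p under 0.05, and 2 fell. Lrg1, a secreted acute-phase glycoprotein, differed by -3.13 (SE 0.18) and Tifa, an adaptor of innate immune signalling, by -1.77 (SE 0.13). In epithelial cells Tifa fell by 2.23 whereas Lrg1 differed by 0.02. Socs3, the feedback inhibitor of the pathway, differed by -0.55 in tumours (SE 0.16, limma adjusted p 0.145), and Fut2, which fucosylates epithelial glycans, by -0.86 (SE 0.24, 0.122). Of 29 other epithelial antimicrobial genes, listed with the same earlier results known, 23 were tested and 2 fell. The median was -0.19, and 9 were at an unadjusted limma p under 0.05. The 2 that fell were Wfdc18, a whey acidic protein family gene (-2.27, SE 0.20), and Retnlb, a goblet cell protein that acts on Gram-negative bacteria (-1.85, SE 0.28). Lcn2, which withholds iron siderophores from bacteria, differed by -1.82 (SE 0.43, limma adjusted p 0.0638), and the Paneth cell ribonuclease Ang4 by 1.15 (SE 0.37, 0.198). In epithelial cells 0 of the 23 passed (0 also at an unadjusted limma p under 0.05), with a median of -0.12 against 0.00 over all genes. Reg3b and Reg3g thus had larger negative differences in tumours than any of these 23 genes, whose lowest was -2.27.

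Of 15 innate sensors upstream of Reg3g, 11 were tested and 0 passed in tumours (2 at an unadjusted limma p under 0.05), with a median of -0.05. The adaptor Myd88 differed by -0.15 (SE 0.12). In epithelial cells the lowest of this list was Il18, a cytokine of the epithelium, at -1.82, which did not pass. Gastrin, ligands of the EGF family and their receptors, studied as inducers of Reg1 and Reg4, gave 8 tested genes of 9, of which 0 passed (0 also at that unadjusted p), with a median of 0.09.

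**Figure D4:**
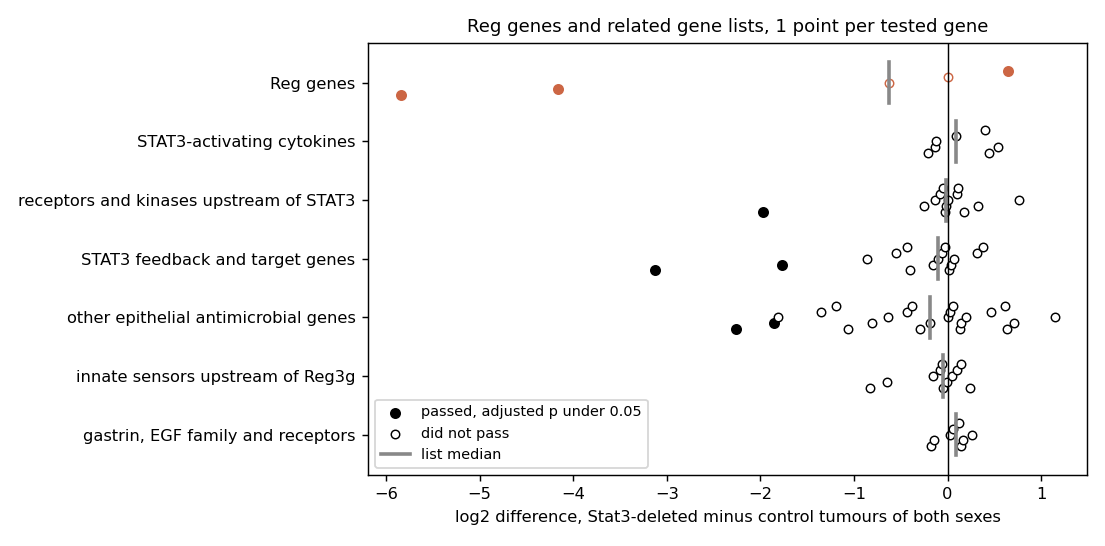
Stat3-deleted minus control difference in tumours of both sexes (log2) for the 5 Reg genes and for each tested gene of 6 related lists, with the list median as a grey bar; filled points passed the limma test. Reg3b at -5.84 and Reg3g at -4.16 lie below every gene of the 6 lists, of which Lrg1 at -3.13 is the lowest.

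Tumours and epithelial cells differed in Reg4 and Reg3a. Reg4 was higher in tumours by 1.82 in control mice (SE 0.18, 95% interval 1.44 to 2.19) and by 2.24 in deleted mice (SE 0.18, 1.86 to 2.61), 3.52-fold and 4.71-fold. Every one of the 12 tumours exceeded every one of the 6 cell samples, at 11.25 to 12.42 against 9.46 to 10.10. The share of all genes that separate in this way was not counted. Between tissues, 65.7% of all genes were called in control mice and 66.5% in deleted mice. Reg3a was lower in control tumours than in control cells, with a difference of -2.82 (SE 0.75, limma adjusted p 0.004), a 7.05-fold decrease, and this held in all 20 alternatives. In deleted mice the Reg3a difference was -1.30 (95% interval -2.88 to 0.27) and did not pass (limma adjusted p 0.131), except without replicate 16 (-1.90, 0.0103).

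Reg3b was lower in deleted tumours than in deleted cells by 1.69 (SE 0.61, limma adjusted p 0.0231). This call was lost without replicate 4, 6, 10, 11 or 18 (differences -1.69 to -1.38, limma adjusted p 0.0523 to 0.0758), with array weights (-0.92, 0.103) and with male tumours alone (-1.60, 0.0658). In control mice the difference was -0.76 (95% interval -2.05 to 0.54) and did not pass. Reg3g differed by -0.76 in control mice (-1.92 to 0.40) and by -1.12 in deleted mice (-2.28 to 0.04, limma adjusted p 0.0806). The latter passed after quantile normalisation (0.0367), with array weights (0.0343), and without replicate 12 (0.0042) or 16 (0.046). Reg1 differed by -1.47 in control mice (-3.27 to 0.33) and by -1.16 in deleted mice (-2.96 to 0.64), and the former passed when the deleted groups were left out of the fit (0.0334).

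These counts, 2 of 5 in control and 2 of 5 in deleted mice, stand against 65.7% and 66.5% of all genes, so a call between tissues was the common outcome. Isolated cells and whole tumours differ in their cells. The mean of 8 fibroblast and smooth muscle genes was 6.24 to 6.76 in cells and 9.52 to 10.53 in tumours. Enterocyte genes averaged 12.60 to 13.03 in cells, 8.75 to 11.61 in control tumours and 10.78 to 12.04 in deleted tumours. All 9 were called lower in tumours of control mice, and 2 of 9 in deleted mice. Enteroendocrine genes, markers of cells that make Reg4, averaged 7.09 to 7.64 in cells and 5.47 to 6.59 in tumours, where 8 of 9 were lower and 1 was higher in both genotypes. Goblet cell genes averaged 11.19 to 11.33 in cells and 9.95 to 11.44 in tumours. The part of these cell types in the differences of Reg4 and the other Reg genes was not tested. Sex moved with tissue too, and its part was not tested. Against male tumours alone the difference was 2.03 in control and 2.13 in deleted mice for Reg4 and -2.68 in control mice for Reg3a, all called, whereas Reg3b in deleted mice did not pass, as given above.

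**Figure D5:**
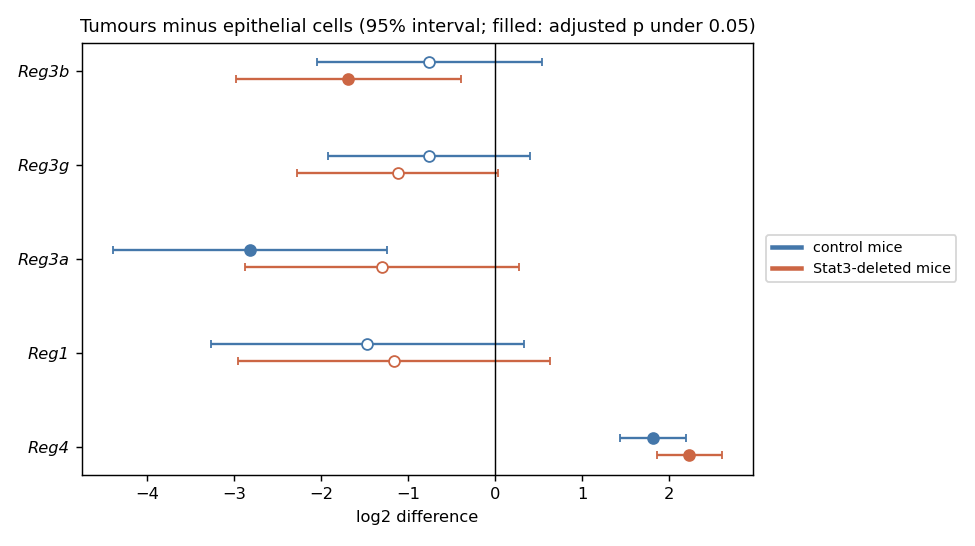
Tumour minus epithelial cell difference of each Reg gene (log2, points) with its 95% interval (lines) in control and Stat3-deleted mice; filled points passed the limma test. Reg4 lies near 2 in both genotypes, while Reg3b and Reg3a passed in only 1 genotype each, a contrast between genotypes that did not pass when tested itself.

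Male and female tumours did not differ detectably. With genotypes averaged, limma called 0 of 5 Reg genes (0 also at an unadjusted p under 0.05), against 0.0231% of all genes. The male minus female difference was -0.07 for Reg3b (95% interval -1.13 to 0.99), 0.01 for Reg3g (-0.94 to 0.96), 0.26 for Reg3a (-1.03 to 1.54), -0.03 for Reg1 (-1.50 to 1.44) and 0.11 for Reg4 (-0.20 to 0.41). The interval was narrowest for Reg4, whose samples varied least.

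The order of the group means set the genes apart. For Reg3b and Reg3g it ran from control cells (13.13 ± 0.092 and 12.81 ± 0.075, SD, n = 3) through female and male control tumours to deleted cells, then deleted male and female tumours. The only neighbours whose arrays did not overlap were male control tumours and deleted cells, 4.0 apart for Reg3b and 2.81 for Reg3g. For Reg1 and Reg3a control cells stood first and deleted cells second, without overlap between them. The 4 tumour groups followed with overlapping arrays at each step. For Reg4 the tumour groups came first, from deleted female tumours (12.33 ± 0.082) to control cells (9.76 ± 0.26). Its only step without overlap was the 1.37 between control female tumours and deleted cells.

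Among all other tested genes, those whose log2 values followed each Reg gene most closely over the 18 arrays were found by Pearson r. For Reg3b they were Ptk6, a cytoplasmic tyrosine kinase of the gut epithelium (r 0.89), Stat3 (0.89) and Tifa (0.85). For Reg3g they were Ptk6 (0.89), Stat3 (0.86) and Ceacam1, an adhesion molecule (0.86). Ptk6 and Stat3 led for both genes. The rank correlations with Stat3 over the same arrays were 0.61 for Reg3b and 0.63 for Reg3g. Reg3a was followed by Parp16, an ADP-ribosyltransferase (0.93), Hacl1, a peroxisomal lyase (0.91), and Cbr1, a carbonyl reductase (0.90). Reg1 was followed by Vrk3 (0.83), the sulfate-activating enzyme Papss2 (0.81) and the gene model Gm7457 (0.80), and Reg4 by the acyltransferase Mboat1 (0.96), the annexin Anxa10 (0.96) and the secreted guidance protein Slit2 (0.95). Among the Reg genes themselves, Reg1 went with Reg3a (r 0.70, rho 0.84), and Reg4 ran opposite to the other 4 (r -0.56 to -0.40). All of these describe arrays that share tissue and genotype, so they hold 6 groups rather than 18 independent conditions.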

How the data were processed

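Each sample was hybridised to 1 Affymetrix array, and the deposited log2 expression values were made by the authors with RMA, per the submitters' processing notes. The RMA version is not given in the sources used here. Their log2 scale was checked against the values (1.33 to 14.6). Of 35556 probe sets, 21789 had 1 gene symbol, and 1621 with several stayed unnamed. For the 999 genes with more than 1, the probe set with the highest mean was used. A model of 6 group means was fitted to 18 arrays in limma 3.58.1 (R 4.3.3) with an intensity trend, two-sided, with Benjamini-Hochberg adjustment within each of 9 comparisons. The fit was also run on simulated data in which all groups shared the same means, except for some genes changed in deleted male tumours. That setting is simpler than these tissues and does not bear on how stable the calls are. Replicate numbers are unique and pair no samples. RMA puts the probe intensities of all arrays on 1 distribution before summarising them, so a shift shared by all genes cannot be seen. The summarised values still differed slightly between arrays, with 25th percentiles of 4.30 to 4.57. No signal over background was given, and 3 arrays per group limit the precision. Promoters came from a RefSeq table with 5 of 5 genes matched. The rule named the 5 Reg genes, Stat3, up to 3 passing genes per list and the 3 most alike genes; other list members named were chosen after their values were seen. The members, lists and alternatives were chosen with earlier results of these data known. Alternatives changed normalization, filter, weights, spread model, probe set rule and arrays.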

Additional observations from a re-analysis of the deposited data

How the results depend on the processing

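Of 900 values of the Reg genes under alternative settings, 853 stayed on their side of the threshold, 37 lost a call, 10 gained one and 0 called values changed sign. The number of Reg genes called with Stat3 deletion in epithelial cells, 1, became 2 with array weights and when the fit held the compared groups alone, and ranged from 0 to 0 when each of replicates 1 to 6 was left out. In male tumours, 2 became 1 with array weights and with group weights, 0 with only the compared groups, and 1 to 2 when leaving out a replicate. In female tumours, 2 became 0 with only the compared groups. For tumours against epithelial cells in deleted mice, 2 became 1 with male tumours alone, chosen after seeing the data, and 1 to 4 when leaving out a replicate. The counts of the other 5 comparisons stayed within 1.5 times. For tumours of both sexes this range includes a drop from 3 to 2 in 15 of 22 alternatives, where Reg4 lost its call. For tumours against epithelial cells in control mice it includes a gain by Reg1 in 1 of 20 alternatives.

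Counts over all genes moved more. Array weights gave 1134 genes in epithelial cells (main 4), 745 in female tumours (18), 1414 over both sexes (123) and 1038 for the tissue difference (2). With only the compared groups there were 2 in male tumours (40), 0 in female tumours and 43 over both sexes. Group weights gave 14, 49 and 1 in male tumours, female tumours and the tissue difference. Without control replicates 9 and 15 there were 117 in male tumours, 202 over both sexes and 8 for the tissue difference. Leaving out a replicate gave 2 in epithelial cells, 13 to 84 in male tumours, 10 to 30 in female tumours, 64 to 265 over both sexes and 1 to 10 for the tissue difference. The causes were not tested, beyond there being fewer arrays in a fit. Signal over background is not given, so Reg3b and Reg3a values below the array median may be bounds rather than levels.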
